A study of Mus musculus with 12 samples.

Results

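The genes described here encode the actin cytoskeleton and its transcriptional control: actins, the proteins that line, cross-link and anchor actin filaments, non-muscle and smooth muscle myosin II, the kinases and GTPases that drive contraction, and the transcription regulators SRF, YAP and TAZ. They were chosen by symbol, as 49 of the 57010 genes of the deposited expression table, and all 49 were found. Of these, 48 passed the filter on low counts and were tested. The exception was Mylk, the kinase that phosphorylates myosin light chains, which reached at most 0.361 CPM (counts per 10 to the power of 6, scaled between libraries) in any library.

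Actin filaments are built from monomers, bundled by cross-linkers such as alpha-actinin and fascin, and made contractile when myosin II slides them past each other. The GTPases RhoA and RhoC, acting through the kinases ROCK1 and ROCK2, switch myosin II on and, through LIM kinase, switch the filament-severing protein cofilin off. When monomeric actin is used up, MRTF cofactors are released to bind SRF, which recognises CArG boxes in the promoters of actin and contractile genes. Cytoskeletal tension also retains YAP and TAZ (encoded by Yap1 and Wwtr1) in the nucleus, where they act through TEAD factors. Actin remodelling accompanies the change from a rounded or epithelial progenitor to a neuron with neurites.

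The cells were NE-4C, a neural progenitor line taken from embryonic day 9 mouse brain and immortalized by loss of p53, which every group shares. Wildtype (WT) cells were compared with a Faf2 knockout (KO) line in which CRISPR-Cas9 removed exon 4 of Faf2, the gene of an adaptor for degradation of proteins from the endoplasmic reticulum. Untreated cells (NO) of both genotypes were collected as they were, entered here as day 0. The others were given 1 µM all-trans retinoic acid (RA) for 24 h and collected on day 3. The 4 groups were thus WT NO, WT RA, KO NO and KO RA. Differences between RA and NO cells therefore cannot be told apart from differences in time in culture. Each group held 3 libraries from separate passages. The knockout is a single line, so differences between genotypes cannot be told apart from differences between this line and its parent.

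Library totals ran from 17370069 to 30738717 counts. KO RA replicate 3 stood apart: its TMM scaling factor was 0.394 against 0.872 to 1.28 in the other 11 libraries, its mitochondrial share was 23.5% against 9.10% to 17.7%, and its 100 most abundant genes held 62.5% of counts against 37.1% to 50.4%. It was above all other 11 libraries for 16 of the 48 tested genes and below all of them for 16. The same count was not made over all genes tested, so these numbers describe the library and not a trait of the 48 genes. Because this library stood apart, the counts and the genes called are given with and without it. Faf2 itself was at 36.0 to 50 CPM in WT NO and 21.0 to 25.4 CPM in KO NO, but at 35.1 to 49.1 CPM in WT RA and 18.7 to 36.1 CPM in KO RA, where the ranges overlap. A gene-level count does not separate transcripts that lack exon 4, so it does not check the KO RA labels. Cap2, an actin monomer-binding gene, was at 0.711 CPM or more in all 6 KO libraries and at 0.0970 CPM or less in all 6 WT libraries. Cap2 was picked because it was called between these labelled groups, so it is not an independent check of the labels. Of the markers of the labelled cell type, Sox2 (23.7 to 101 CPM) and Nes (31.3 to 75.0 CPM) were present in every library, while Hes5 stayed at or under 1.43 CPM and the pluripotency gene Pou5f1 was at 800 to 2780 CPM. Pax6 was lower in KO than in WT cells, at 0.791 to 2.01 against 4.12 to 9.30 CPM without RA. With RA it was at 1.84 to 4.33 against 11.8 to 14.9 CPM. Sox1 and Fabp7 stayed at or under 0.813 and 0.517 CPM in all NO libraries.

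Beside the promoters of these genes, the CArG box and the TEAD-binding hexamer show where SRF and the YAP and TAZ partners could bind. RefSeq starts (table on GRCm38.p6) were found for 43 of the 49 genes, at 56 starts, and the 250 bases before each start were searched on both strands. A CArG box was taken as CC, 6 bases of A or T, and GG, which reads as the same pattern on either strand, and a CArG-like box allowed 1 G or C among the 6 central bases. CArG boxes lay before 7 of the 56 starts (12.5%), against 1.47% of 32851 starts in the whole table and 1.19% of the 14248 starts of tested genes. CArG-like boxes lay before 4 of the 56 starts (7.14%), close to the 7.24% of all starts. GGAATG, or its reverse complement CATTCC, lay before 19 of the 56 starts (33.9%), against 12.6% of all starts and 10.8% of those of tested genes. These shares describe letters in a window and starts of 1 gene can overlap, so no test was made. The list was also chosen as contractile, SRF and YAP genes, so its shares are not independent of that choice. The CArG and CArG-like boxes of the actins, of the myosin light chain genes Myl9 and Myl6 and of Srf are shown because these genes are described below. The stretches were placed on GRCm39 by exact match, each is written along the strand of its gene, and capitals mark the box.
Acta2, farther box: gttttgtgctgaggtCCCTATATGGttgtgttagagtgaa
Acta2, nearer box: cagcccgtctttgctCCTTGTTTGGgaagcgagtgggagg
Actg1: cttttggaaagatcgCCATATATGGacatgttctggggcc
Myl9, farther box: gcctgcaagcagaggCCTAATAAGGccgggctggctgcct
Myl9, nearer box: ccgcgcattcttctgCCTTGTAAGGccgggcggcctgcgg
Myl6: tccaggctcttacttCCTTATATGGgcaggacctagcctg
Srf, farther box: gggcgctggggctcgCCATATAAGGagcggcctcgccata
Srf, nearer box: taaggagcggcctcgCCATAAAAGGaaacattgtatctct

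The Acta2 stretches are chr19:34232833-34232872 and chr19:34232783-34232822 on the minus strand, with boxes that begin 84 and 34 bases before the RefSeq start, and both are CArG-like. The Actg1 box (chr11:120239387-120239426, minus strand) begins 90 bases before its start. The Myl9 stretches (chr2:156617208-156617247 and chr2:156617270-156617309, plus strand) hold a CArG box 161 bases and a CArG-like box 99 bases before the start. The Myl6 box (chr10:128328904-128328943, minus strand) begins 50 bases before the start, and the Srf boxes (chr17:46867146-46867185 and chr17:46867126-46867165, minus strand) begin 82 and 62 bases before it. CArG boxes were also found before Cnn2, Lima1 and Vcl. The TEAD hexamer lay before 16 of the 43 genes, among them Yap1 and Wwtr1, and was not found before Actg1, Myl9, Myl6 or Srf. As examples it is shown for Acta2, Lmod1, Cald1 and Ankrd1. Lmod1 is a nucleator of actin filaments in smooth muscle, and Ankrd1, a standard target gene of YAP and TAZ, has 2 copies.
Acta2: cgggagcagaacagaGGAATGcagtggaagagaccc
Lmod1: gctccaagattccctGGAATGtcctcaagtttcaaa
Cald1: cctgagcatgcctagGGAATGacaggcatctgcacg
Ankrd1, farther copy: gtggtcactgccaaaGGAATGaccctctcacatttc
Ankrd1, nearer copy: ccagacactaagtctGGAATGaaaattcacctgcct

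These stretches are chr19:34232899-34232934 (minus strand), chr1:135252406-135252441 (plus), chr6:34575271-34575306 (plus), chr19:36097434-36097469 (minus) and chr19:36097347-36097382 (minus), with hexamers that begin 146, 130, 153, 210 and 123 bases before the start.

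Of the 48 genes, 8 were higher in KO cells after RA than in KO cells without RA, while the abundant cytoplasmic actins, cofilin and the regulators Srf and Yap1 passed no test in any comparison, with or without KO RA replicate 3. In KO RA against KO NO, edgeR called 8 of 48 genes higher and 0 lower (adjusted p under 0.05, adjusted over 16502 genes): Acta2, Lmod1, Myl9, Synpo, Rhoc, Arhgap6, Cald1 and Actn1. Over all genes tested, 3.89% were called higher and 1.59% lower. A fit that omitted KO RA replicate 3 called the same 8 genes and Fscn1 higher and 0 lower, against 8.48% and 7.54% of 17327 genes. The median log2 fold change of the 48 genes was 0.27 against 0.11 over all genes, and 0.31 against −0.02 without that library. Without any single KO NO library, 0 of the 8 calls passed, with adjusted p of 0.091 to 0.0986 for Acta2. Over all genes, calls in this comparison fell from 904 to 194, 210 and 233 without KO NO replicates 1, 2 and 3. Leaving out any of the WT libraries or KO RA replicate 1 also ended the call for Cald1 (adjusted p of 0.0511 to 0.0861), that for Rhoc was lost without WT NO replicate 1 or any WT RA library (0.0508 to 0.0542), and that for Synpo without KO RA replicate 1 (0.0535). When only these 2 groups were fitted, Acta2 alone of the 48 passed (adjusted p = 0.0254), and 196 of all 15307 genes did.

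Between genotypes after RA (KO RA against WT RA), 1 gene was called higher, Actn1, and 0 lower, where 0.885% of all genes were called higher and 0.358% lower. The fit that omitted KO RA replicate 3 called 7 higher (Actn1, Tpm1, Tpm2, Cald1, Pdlim1, Rhoa and Wwtr1) and 1 lower (Myl6), against 4.42% and 5.44%. The median of the 48 genes was 0.32 against 0.09 over all genes, and 0.39 against 0.01 without that library. The call for Actn1 was lost without any single WT RA library (adjusted p of 0.0643 to 0.106) and when only these 2 groups were fitted (adjusted p = 0.155). Over all genes, calls fell from 205 to 19, 30 and 27 without WT RA replicates 1, 2 and 3, and to 16 in that fit of 2 groups. KO RA libraries enter both this comparison and the one above, so the comparisons are not independent.

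Without RA, KO NO against WT NO gave 0 calls in edgeR, where 0.788% of all genes were called higher and 0.351% lower. Before adjustment 3 of the 48 had p under 0.05 and were higher, and 4 were lower, against 12.2% of all genes in either direction. DESeq2 called 1 (6.15% of all genes) and limma-voom called 12 (21.6%). With KO RA replicate 3 left out, Lima1 was called higher and Fscn1, Pdlim7 and Ezr lower, against 4.43% and 4.35% of all genes. The RA response of WT cells, WT RA against WT NO, also gave 0 calls, against 0.321% higher and 0.0848% lower over all genes. Before adjustment, p was under 0.05 for 2 higher and 3 lower genes (12.5% of all genes), DESeq2 called 2 (5.60%) and limma-voom 14 (21.6%). In the same fit without that library, Myl6 was called higher and Zyx lower, against 5.65% and 5.13%. The median of the 48 genes was 0.011 (all genes −0.020) for genotype without RA and −0.082 (all genes −0.008) for RA in WT cells.

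The difference between the RA responses (KO minus WT) was called for 0 genes of the 48 and for 0% of all genes in either direction. Before adjustment, p was under 0.05 for 11 higher and 1 lower gene of the 48, against 8.62% of all genes, while DESeq2 called 2 (1.87%) and limma-voom 4 (5.97%). On leaving out KO RA replicate 3, Fscn1 alone was called, higher, against 0.802% higher and 0.537% lower over all genes. A response that passed the test in KO cells and not in WT cells was thus not shown to differ between them by edgeR, other than for Fscn1 in that fit. The median difference was 0.45 for the 48 genes and 0.12 for all genes, and 0.40 and 0.00 without that library.

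**Figure D1:**
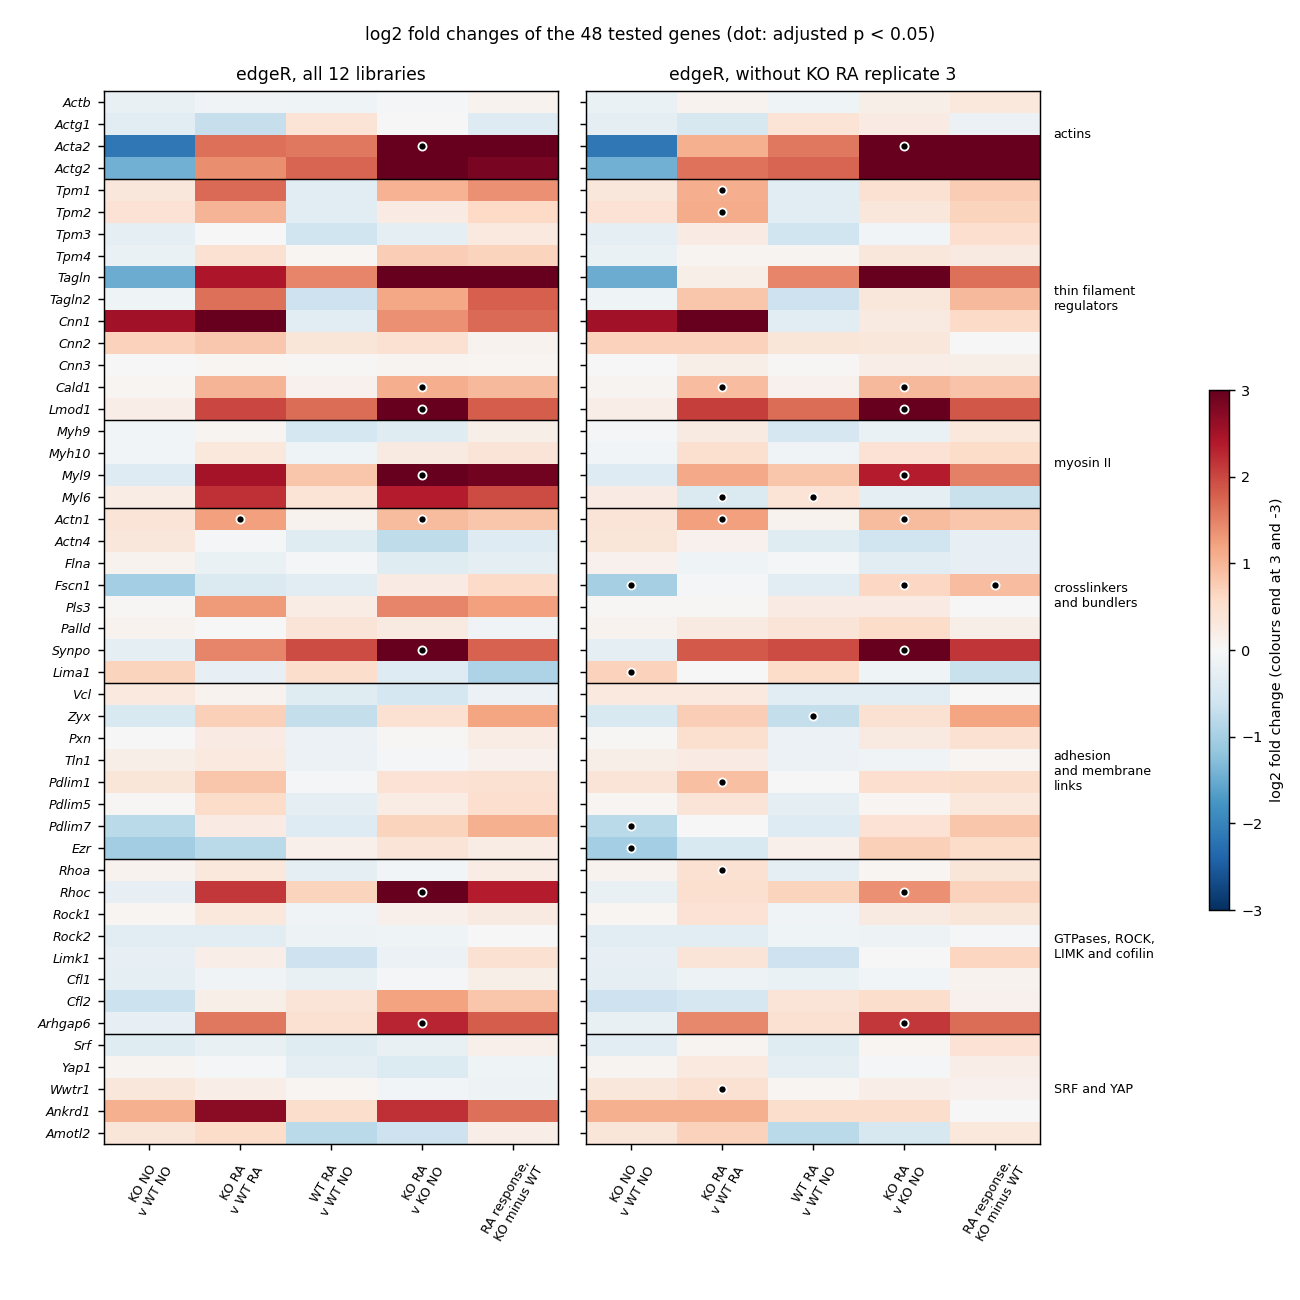
Colour shows the log2 fold change of each of the 48 tested genes (rows, grouped by role) in the 5 comparisons (columns), fitted by edgeR on all 12 libraries (left) and without KO RA replicate 3 (right), and dots mark adjusted p under 0.05. The KO RA against KO NO column holds 8 dots on the left and 9 on the right, all on red cells.

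Actins. Acta2, the smooth muscle alpha-actin, was at 111, 62.3 and 210 CPM in KO RA and at 4.13, 1.69 and 3.46 CPM in KO NO. WT NO libraries held 8.31, 1.15 and 31.3 CPM, and WT RA libraries 39.2, 70.2 and 13.4 CPM. The groups KO RA and KO NO did not overlap, whereas both WT groups spread widely and overlapped each other. The log2 fold change of KO RA over KO NO was 5.37 ± 1.09 (SE, 3 against 3 libraries; 41.2-fold; edgeR adjusted p = 0.0192), and 4.79 ± 1.15 (27.7-fold; adjusted p = 0.0237) without KO RA replicate 3. In WT cells the same contrast was 1.59 ± 0.93 (adjusted p = 0.539), and the difference between the responses was 3.78 ± 1.33 (adjusted p = 0.472). KO RA against WT RA was 1.64 ± 0.93 (adjusted p = 0.369). Without KO RA replicate 3 these values of Acta2 were 1.58 ± 0.96, 3.21 ± 1.44 and 1.07 ± 1.03 (adjusted p = 0.333, 0.271 and 0.556).

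Actb and Actg1, the cytoplasmic beta- and gamma-actins of every cell, were the most abundant of the 4 actins. Mean Actb was 2360 ± 503 CPM for WT NO and 2140 ± 112 CPM after RA, and in KO cells 2030 ± 297 CPM untreated and 1980 ± 609 CPM after RA (SD, n = 3). Its KO RA libraries were at 2370, 2280 and 1270 CPM, the last being replicate 3 and the lowest of all 12. Actg1 had means of 1930 ± 518, 2560 ± 676, 1560 ± 179 and 1570 ± 480 CPM in the same order, with 3340 CPM in WT RA replicate 2 and 1030 CPM in KO RA replicate 3 as its extremes. For Actg1, all KO RA libraries (1920, 1780 and 1030 CPM) lay below all WT RA libraries (2230, 3340 and 2120 CPM), with a log2 fold change of −0.70 ± 0.34 (adjusted p = 0.311). No comparison of either gene passed the test.

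Actg2, the enteric smooth muscle gamma-actin, was barely detected, with 0 to 5 deposited counts in the WT NO libraries, 0 to 17 in WT RA and 0, 3 and 0 in KO NO. The KO RA libraries held 32, 14 and 5 counts, or 1.44, 0.477 and 0.496 CPM. KO RA against KO NO had an adjusted p of 0.125, and no fold is given because KO NO was at or under 3 counts in every library. The coding sequences of the 4 actins are 81.9% to 88.7% identical in pairs, and reads that match more than 1 of them were shared out by the quantification, so the low Actg2 values in particular are uncertain.

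**Figure D2:**
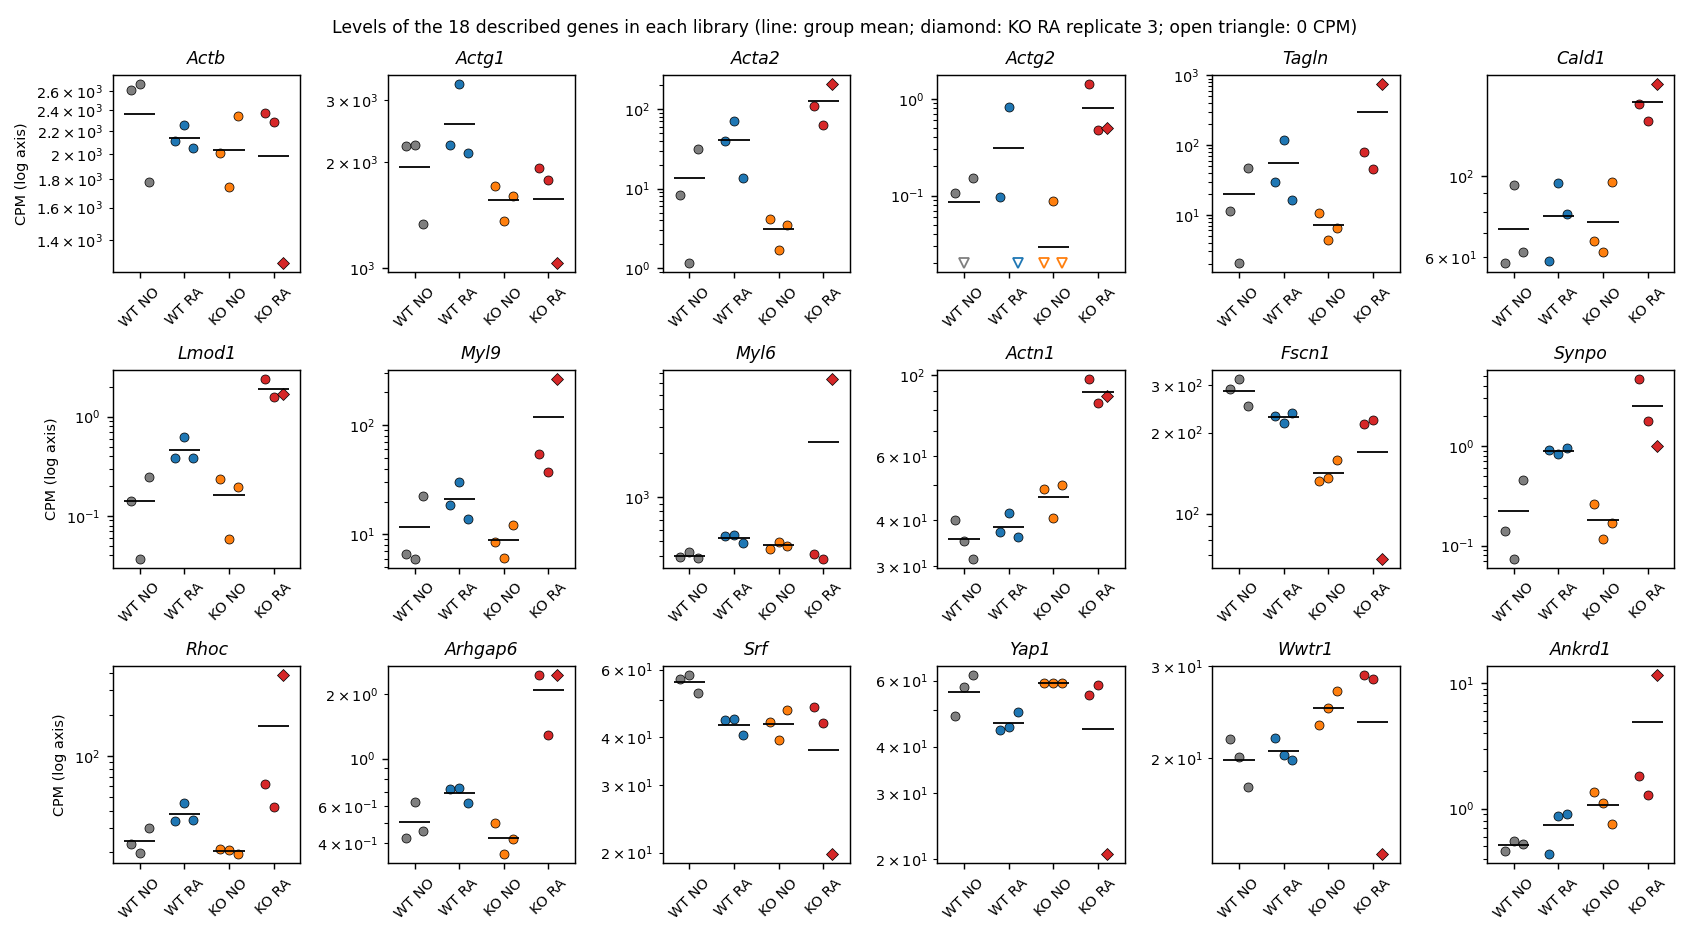
Each panel plots CPM on a log axis for 1 of the 18 genes described in full, with a point per library, a line at the group mean, a diamond for KO RA replicate 3 and an open triangle for 0 CPM. For Actn1 the 3 KO RA libraries (83.8 to 97.3 CPM) sit above the other 9, while for Myl6 the diamond at 6410 CPM stands alone.

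Thin filament regulators. Of 11 genes in this group, 2 rose in KO RA against KO NO, Cald1 and Lmod1, and 0 fell; without KO RA replicate 3 the same 2 were called, and in KO RA against WT RA 3 were (Tpm1, Tpm2 and Cald1). Of all genes, 3.89% rose and 1.59% fell in KO RA against KO NO (8.48% and 7.54% without that library), and 4.42% were called higher in KO RA against WT RA in the latter fit. Cald1 encodes caldesmon, which binds actin, myosin and tropomyosin. It was at 157, 141 and 179 CPM in KO RA, above the 62.0 to 96.4 CPM of KO NO and the 58.6 to 96.0 CPM of WT RA, and WT NO libraries held 57.8, 94.8 and 62.2 CPM. Every KO RA library was above every other library. Its log2 fold change was 1.08 ± 0.28 against KO NO (2.12-fold; adjusted p = 0.0492) and 1.03 ± 0.28 against WT RA (2.04-fold; adjusted p = 0.106), and without KO RA replicate 3 these were 0.98 ± 0.26 (adjusted p = 0.0295) and 0.93 ± 0.26 (adjusted p = 0.0487).

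Lmod1 was low in every group but rose with RA in KO cells, from 0.234, 0.0592 and 0.195 CPM in KO NO to 2.39, 1.57 and 1.68 CPM in KO RA. The deposited estimated counts, which are scaled and are not numbers of reads, were 8, 2 and 7 against 53, 46 and 17. The log2 fold change was 3.49 ± 0.71 (adjusted p = 0.0187), and 3.55 ± 0.77 (adjusted p = 0.0118) without KO RA replicate 3. In WT cells Lmod1 was at 0.141, 0.037 and 0.244 CPM without RA and at 0.385, 0.630 and 0.382 CPM with RA, groups that did not overlap (1.68 ± 0.70; adjusted p = 0.347).

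Tagln, which encodes the smooth muscle actin-binding protein transgelin, was at 10.5, 4.32 and 6.45 CPM in KO NO and at 78.8, 45.4 and 763 CPM in KO RA. The WT NO libraries held 11.2, 2.03 and 46.4 CPM and the WT RA libraries 29.3, 120 and 16.1 CPM. KO RA libraries were above all KO NO libraries, but 1 library decided the size: the log2 fold change was 5.38 ± 1.42 (adjusted p = 0.0515) with KO RA replicate 3 and 3.11 ± 1.17 (adjusted p = 0.111) without it. Against WT RA it was 2.42 ± 1.24 with that library and 0.17 ± 1.14 without (adjusted p = 0.329 and 0.954).

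Tropomyosins Tpm1 and Tpm2, which lie along the actin filament, were called higher in KO RA than in WT RA in the fit without KO RA replicate 3 and not in that of all 12 libraries. Tpm1 held 662 and 495 CPM in KO RA replicates 1 and 2 and 1460 CPM in replicate 3, against 209, 382 and 219 CPM in WT RA, and its log2 fold change without replicate 3 was 1.09 ± 0.26 (adjusted p = 0.0282). Tpm2 held 39.5, 33.4 and 29.2 CPM against 14.7, 20.5 and 15 CPM (1.12 ± 0.27; adjusted p = 0.0289). With all libraries the log2 fold changes were 1.69 ± 0.41 for Tpm1 (adjusted p = 0.0733) and 1.03 ± 0.28 for Tpm2 (adjusted p = 0.103). The other tropomyosin genes, Tpm3 (167 to 450 CPM) and Tpm4 (96.6 to 303 CPM), passed no test, nor did Tagln2 (11 to 84.4 CPM), Cnn2 (44.3 to 127 CPM) and Cnn3 (394 to 557 CPM). Cnn1, the smooth muscle calponin, was singled out after its values were seen: it was at 2.31 to 4.80 CPM in KO NO and 3.54 to 20.1 CPM in KO RA, above the 0 to 1.04 CPM of every WT library, with adjusted p of 0.296 without RA and 0.0747 with RA.

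Myosin II. Myl9, the regulatory light chain of smooth muscle and non-muscle myosin II, rose in KO RA against KO NO, and it was the only 1 of 4 tested genes of this group to do so. Of all genes, 3.89% rose in this comparison (8.48% without KO RA replicate 3). Myl9 was at 8.55, 6.07 and 12.1 CPM in KO NO and at 54.8, 37.3 and 265 CPM in KO RA, while WT NO libraries held 6.69, 5.99 and 22.4 CPM and WT RA libraries 18.6, 30.4 and 14.0 CPM. All KO RA libraries were above all others. Its log2 fold change over KO NO was 3.74 ± 0.80 (13.3-fold; adjusted p = 0.0230) and, without KO RA replicate 3, 2.35 ± 0.55 (5.11-fold; adjusted p = 0.0166). Over WT RA it was 2.51 ± 0.76 (adjusted p = 0.136) and 1.13 ± 0.54 (adjusted p = 0.211).

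Myl6, the essential light chain, was the gene for which KO RA replicate 3 mattered most. It was at 388, 424 and 386 CPM in WT NO, 540, 549 and 490 CPM in WT RA, and 445, 495 and 465 CPM in KO NO. KO RA held 408 and 380 CPM in replicates 1 and 2 and 6410 CPM in replicate 3. The fold change of KO RA over WT RA reversed, from 2.19 ± 0.87 (adjusted p = 0.237) with that library to −0.43 ± 0.11 (adjusted p = 0.0364) without it. In that fit Myl6 also rose with RA in WT cells, by 0.405 ± 0.098 on the log2 scale (adjusted p = 0.0272). The heavy chains Myh9 and Myh10, at 55.3 to 133 CPM and 68.5 to 125 CPM over the 12 libraries, passed no test.

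Crosslinkers and bundlers. Actn1, the non-muscle alpha-actinin that ties parallel filaments together, was at 97.3, 83.8 and 87.6 CPM in KO RA, at 48.7, 40.5 and 49.9 CPM in KO NO, at 37.1, 41.9 and 36.1 CPM in WT RA and at 40.0, 35.1 and 31.4 CPM in WT NO. KO RA was above every other library, and the KO NO libraries were in turn above those of WT NO. The log2 fold change was 1.22 ± 0.19 over WT RA (2.34-fold; adjusted p = 0.015) and 0.95 ± 0.19 over KO NO (1.93-fold; adjusted p = 0.0156). Leaving out KO RA replicate 3 gave 1.23 ± 0.14 and 0.96 ± 0.14 (adjusted p = 0.00138 and 0.00218). The difference between the RA responses was 0.84 ± 0.26 (adjusted p = 0.419), and 0.84 ± 0.19 (adjusted p = 0.0637) without replicate 3. Its paralog Actn4 was at 149, 138 and 95.8 CPM in KO RA and 239, 178 and 232 CPM in KO NO, that is, below in every library, with an adjusted p of 0.123.

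Fscn1, the fascin that packs actin into the tight bundles of filopodia and growth cones, differed the other way. It was at 290, 316 and 251 CPM in WT NO and at 132, 136 and 158 CPM in KO NO, groups that did not overlap. Its log2 fold change was −1.01 ± 0.37 (adjusted p = 0.276) with all libraries and −0.999 ± 0.113 (adjusted p = 0.00108) without KO RA replicate 3. After RA, WT cells held 231, 217 and 236 CPM and KO cells 216, 223 and 67.9 CPM, so that KO RA replicate 2 was within the WT RA range, replicate 1 was just below its lowest library and replicate 3 was far below it. KO RA over KO NO was 0.25 ± 0.37 (adjusted p = 0.693) with that library and 0.62 ± 0.12 (adjusted p = 0.00858) without it. The RA response of KO cells exceeded that of WT cells by 0.94 ± 0.17 (adjusted p = 0.0324) without it, and by 0.58 ± 0.52 (adjusted p = 0.749) with it.

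Synpo, whose product synaptopodin binds alpha-actinin in podocytes and dendritic spines, was at 0.264, 0.118 and 0.168 CPM in KO NO and at 4.69, 1.77 and 0.991 CPM in KO RA. The deposited estimated counts were 9, 4 and 6 against 104, 52 and 10. The WT NO libraries held 0.141, 0.0739 and 0.458 CPM, below the 0.913, 0.824 and 0.955 CPM of WT RA. The log2 fold change in KO cells was 3.74 ± 0.77 (adjusted p = 0.020) and in WT cells 1.96 ± 0.74 (adjusted p = 0.295), with a difference of 1.78 ± 1.03 (adjusted p = 0.650). Leaving out KO RA replicate 3 gave 4.09 ± 0.725 for Synpo in KO cells (adjusted p = 0.00499). Lima1, an actin cross-linker, was called higher in KO NO than in WT NO without KO RA replicate 3 (0.68 ± 0.17; adjusted p = 0.0365), with 28.4, 21.5 and 26.6 CPM against 15.5, 14.3 and 18.2 CPM. Flna, Pls3 and Palld passed no test, and Pls3, which encodes the bundler plastin 3, was at 95.1 to 135 CPM in 11 libraries and at 612 CPM in KO RA replicate 3.

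Adhesion and membrane links. None of the 8 genes that join actin to focal adhesions or the membrane was called in the fit of all 12 libraries, in any of the 5 comparisons. Of all genes, that fit called at most 3.89% higher and 1.59% lower in any of them. The fit without KO RA replicate 3 called 4: 2 in KO NO against WT NO, 1 in KO RA against WT RA and 1 in WT RA against WT NO. That fit called 4.43% of all genes higher and 4.35% lower in the first of these comparisons, 4.42% and 5.44% in the second, and 5.65% and 5.13% in the third. Ezr, the ezrin that ties filaments to the membrane of epithelial cells, was at 66.4, 64.2 and 77.2 CPM in KO NO and at 151, 201 and 73.9 CPM in WT NO (−1.02 ± 0.27; adjusted p = 0.0438), where WT NO replicate 3 was within the KO NO range. Pdlim7, a PDZ and LIM adaptor of stress fibres, was at 29.7, 21.9 and 31.8 CPM against 51.7, 50 and 45 CPM (−0.80 ± 0.17; adjusted p = 0.0188). Pdlim1, its relative that binds alpha-actinin, was at 168, 178 and 146 CPM in KO RA and 75.0, 110 and 92.5 CPM in WT RA (0.89 ± 0.18; adjusted p = 0.0134). Zyx, the stress fibre protein zyxin, fell with RA in WT cells, from 44.9, 63.2 and 55.7 to 28.8, 39.2 and 30.9 CPM (−0.72 ± 0.19; adjusted p = 0.0405). In KO cells Zyx was at 34.7, 36.2 and 48.3 CPM without RA and 64.3, 46.1 and 52.9 CPM with it, with a difference between the responses of 1.18 ± 0.33 (adjusted p = 0.366), and of 1.18 ± 0.29 (adjusted p = 0.069) without KO RA replicate 3. Vcl, Pxn, Tln1 and Pdlim5, which encode vinculin, paxillin, talin and a Z-disc adaptor, passed no test.

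Control of contraction. Of the 8 genes of this group, Rhoc and Arhgap6 rose in KO RA against KO NO and 0 fell, with and without KO RA replicate 3, against 3.89% and 1.59% of all genes (8.48% and 7.54%). Rhoc, a close relative of RhoA linked to cell motility, was at 20.9, 20.8 and 19.2 CPM in KO NO and at 62.8, 42.5 and 391 CPM in KO RA. The WT NO libraries held 22.7, 19.6 and 29.6 CPM and WT RA 33.8, 45.3 and 34.3 CPM, so KO RA replicate 2 was within the WT RA range. Its log2 fold change over KO NO was 3.03 ± 0.69 (8.14-fold; adjusted p = 0.0304) with replicate 3, and 1.36 ± 0.21 (2.57-fold; adjusted p = 0.00285) without it. In WT cells it was 0.66 ± 0.64 (adjusted p = 0.760), and 0.66 ± 0.20 (adjusted p = 0.0539) in the fit without that library. Rhoc stood 2.13 ± 0.66 above WT RA with replicate 3 (adjusted p = 0.148) and 0.47 ± 0.21 without it (adjusted p = 0.193).

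Arhgap6, a GTPase-activating protein that turns RhoA off, was at 0.498, 0.355 and 0.419 CPM in KO NO and at 2.48, 1.29 and 2.48 CPM in KO RA, above every WT library (0.423 to 0.727 CPM). The log2 fold change was 2.28 ± 0.44 over KO NO (adjusted p = 0.0152) and 1.58 ± 0.44 over WT RA (adjusted p = 0.106). Without KO RA replicate 3 these were 2.13 ± 0.47 (adjusted p = 0.0126) and 1.44 ± 0.47 (adjusted p = 0.0776). Rhoa itself was at 147 to 216 CPM in all 12 libraries. In the fit that left out KO RA replicate 3 it was called 0.46 ± 0.10 higher in KO RA than in WT RA (adjusted p = 0.0162), from 216 and 196 CPM against 149, 152 and 147 CPM. Rock1, Rock2, Limk1, Cfl1 and Cfl2 passed no test, and Cfl1, the abundant cofilin, ranged from 949 to 1710 CPM.

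SRF, YAP and TAZ. None of these 5 genes was called in the fit of all 12 libraries, which called at most 3.89% of all genes higher and 1.59% lower in any comparison. Srf was at 56.6, 58.2 and 52.2 CPM in WT NO and 44.4, 44.5 and 40.5 CPM in WT RA. In KO cells it was at 43.8, 39.2 and 47.1 CPM untreated and 47.8, 43.6 and 19.8 CPM after RA. WT NO was thus above the other 9 libraries, with adjusted p of 0.673 for RA and 0.723 for genotype (0.0509 and 0.0626 without KO RA replicate 3). Yap1, whose product is the transcriptional coactivator YAP, was at 48.2, 57.8 and 62.3 CPM in WT NO and 44.2, 45 and 49.5 CPM in WT RA. KO cells held 59.1, 59.1 and 59.2 CPM untreated and 54.9, 58.6 and 20.6 CPM after RA. Wwtr1 was at 21.8, 20.1 and 17.6 CPM in WT NO, 21.9, 20.3 and 19.8 CPM in WT RA, and 23.1, 24.9 and 26.9 CPM in KO NO, with 28.9, 28.4 and 13.1 CPM in KO RA. All of Srf, Yap1 and Wwtr1 were lowest in KO RA replicate 3, and without it Wwtr1 was called 0.47 ± 0.13 higher in KO RA than in WT RA (adjusted p = 0.0461).

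Ankrd1 was low: WT NO libraries held 0.458, 0.554 and 0.519 CPM and WT RA libraries 0.433, 0.873 and 0.908 CPM. KO NO libraries held 1.35, 1.10 and 0.754 CPM and KO RA libraries 1.81, 1.29 and 11.7 CPM. KO libraries were above WT libraries of the same treatment in both cases, but neither difference passed (1.06 ± 0.74, adjusted p = 0.670, without RA; 2.71 ± 0.77, adjusted p = 0.113, with RA). Without KO RA replicate 3 the latter was 1.06 ± 0.47 (adjusted p = 0.182). Amotl2, an angiomotin-like target and partner of YAP, was at 50.6, 56.0 and 43.2 CPM in WT NO and 19.3, 36.8 and 29.0 CPM in WT RA (−0.82 ± 0.30; adjusted p = 0.279).

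**Figure D3:**
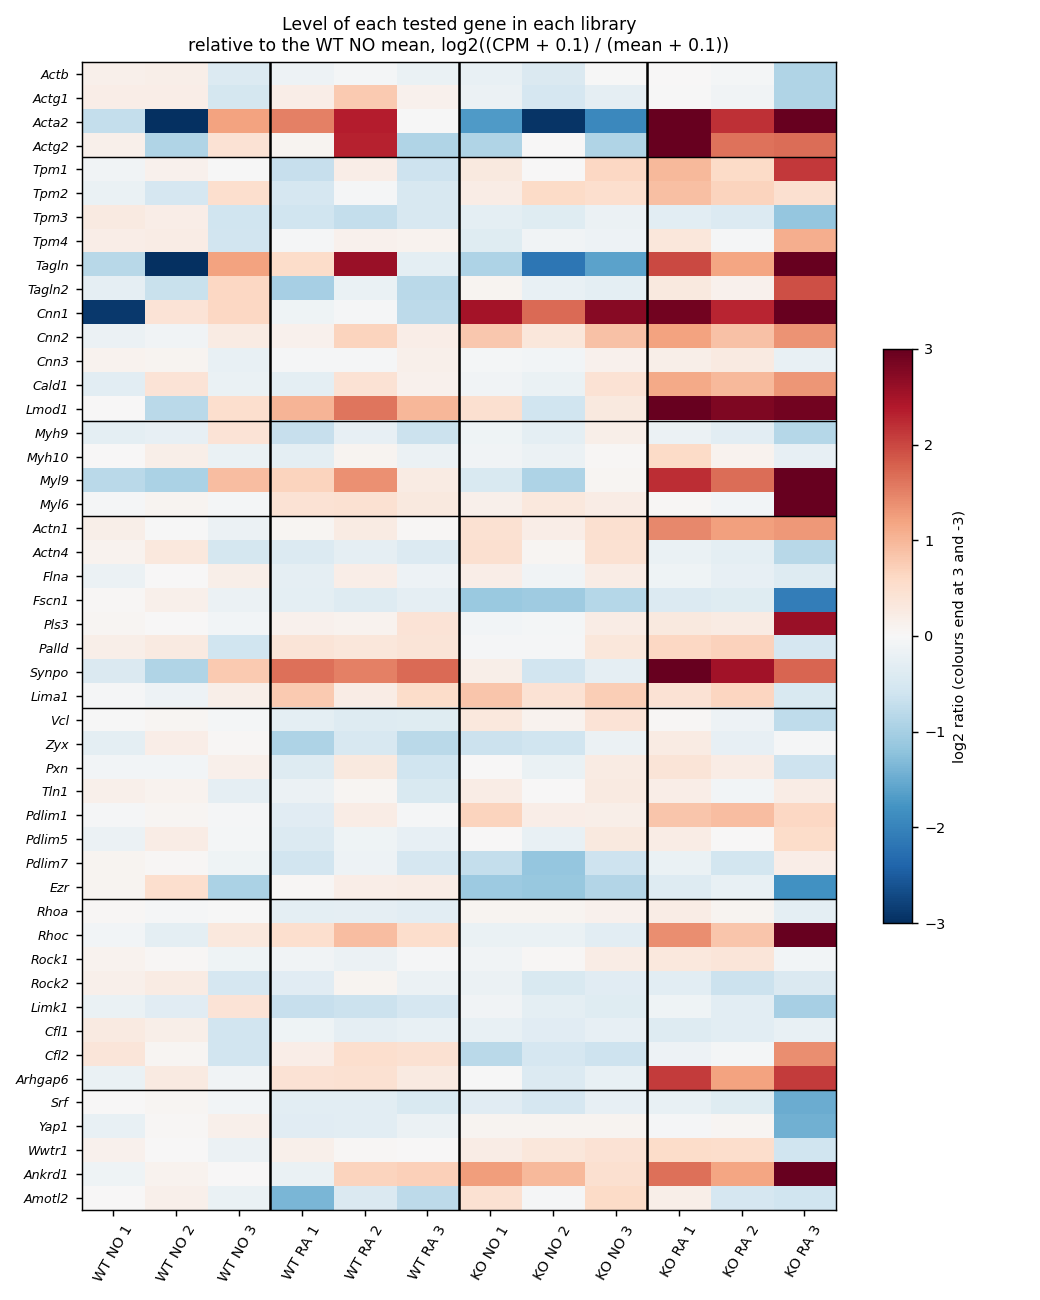
Colour shows the level of each of the 48 tested genes (rows) in each of the 12 libraries (columns) as log2 of CPM plus 0.1 over the WT NO mean plus 0.1. Colours end at 3 and −3. KO RA replicate 3 is dark red for Myl6 (6410 CPM), where replicates 1 and 2 are near white, and a deeper blue than both for Srf, Yap1 and Fscn1.

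Neighbouring genes of the same pathways, taken from lists outside the 49, were examined beside these results. These lists too were chosen with earlier results of these data known, so their counts are not independent support. Among 139 tested genes in 7 such lists, edgeR called 21 higher and 4 lower in KO RA against KO NO (34 and 7 of 140 without KO RA replicate 3), 7 higher and 0 lower in KO RA against WT RA (23 and 1), 3 and 0 in KO NO against WT NO (6 and 9), 1 and 1 in WT RA against WT NO (12 and 13), and 0 and 0 for the difference in response (8 and 0). The shares of all genes called higher and lower, in the same order, were 3.89% and 1.59% (8.48% and 7.54% without that library), 0.885% and 0.358% (4.42% and 5.44%), 0.788% and 0.351% (4.43% and 4.35%), 0.321% and 0.0848% (5.65% and 5.13%), and 0% and 0% (0.802% and 0.537%).

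In KO RA against WT RA, 5 of 21 YAP and TAZ targets were higher and 0 lower, with a median of 0.75 (8 of 22 and 0.73 without KO RA replicate 3). Ccn2, the matricellular factor CTGF, was at 31.6, 18.1 and 26.7 CPM in KO NO against 2.22, 1.89 and 0.549 CPM in WT NO (4.04 ± 0.51; adjusted p = 0.00484). It was at 23.4, 18.7 and 39.2 CPM in KO RA against 1.87, 1.26 and 2.20 CPM in WT RA (3.92 ± 0.51; adjusted p = 0.0075). The fit without KO RA replicate 3 gave 4.06 ± 0.43 and 3.55 ± 0.45 (adjusted p = 0.000725 and 0.00209). Ccn2 was the gene of this list called in KO NO against WT NO with all 12 libraries. Myof, which encodes the membrane repair protein myoferlin, and Tgfb2, a TGF-beta ligand, were higher in KO RA than in WT RA (5.64 ± 0.81 and 1.91 ± 0.32; adjusted p = 0.0111 and 0.0202), and Tgfb2 rose with RA in KO cells (2.82 ± 0.33; adjusted p = 0.0014). Without that library these were 5.27 ± 0.815 for Myof and 1.74 ± 0.31 and 2.65 ± 0.31 for Tgfb2 (adjusted p = 0.0053, 0.00868 and 0.000737). Among the Hippo kinases and TEAD factors, Tead3 rose and Amot, an angiomotin that holds YAP in the cytoplasm, fell with RA in KO cells (1.396 ± 0.28 and −2.09 ± 0.34; adjusted p = 0.0177 and 0.00703). Amot also fell in WT cells (−1.87 ± 0.34; adjusted p = 0.0432). In the fit without KO RA replicate 3, the response of KO cells was 1.59 ± 0.22 for Tead3 and −1.77 ± 0.16 for Amot (adjusted p = 0.00155 and 0.000149), and that of Amot in WT cells −1.87 ± 0.14 (adjusted p = 0.000156).

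Of 16 tested SRF cofactors and early targets, 3 rose in KO RA against KO NO: Tgfb1i1 (2.41 ± 0.33; adjusted p = 0.00348), Elk3 (2.37 ± 0.48; adjusted p = 0.0187) and the early response gene Egr1 (2.08 ± 0.45; adjusted p = 0.0244). Without KO RA replicate 3 they were 2.38 ± 0.33, 2.44 ± 0.50 and 2.42 ± 0.34 (adjusted p = 0.00156, 0.00933 and 0.00157). Egr1 was at 23.7, 26.9 and 15.3 CPM in WT NO and 9.86, 5.97 and 10 CPM in WT RA, whereas KO cells held 7.82, 8.29 and 5.70 CPM untreated and 52.6, 26.1 and 13.2 CPM after RA. Its responses in KO and WT cells differed by 3.43 ± 0.63 (adjusted p = 0.144), and by 3.77 ± 0.46 (adjusted p = 0.0102) without KO RA replicate 3.

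Among other bundling and stress fibre genes, 6 of 25 rose in KO RA against KO NO and 0 fell. They included the extracellular matrix gene Tnc (5.86 ± 0.62; adjusted p = 0.000744), which was also higher than in WT RA (3.41 ± 0.55; adjusted p = 0.0165), the actin-binding Marcks (1.70 ± 0.41; adjusted p = 0.0395) and Fblim1 (1.44 ± 0.35; adjusted p = 0.0397). Tnc was at 24.9, 18.6 and 56.5 CPM in KO RA, and without replicate 3 its differences were 5.23 ± 0.50 and 2.79 ± 0.45 (adjusted p = 0.000224 and 0.00618), those of Marcks and Fblim1 being 2.07 ± 0.23 and 1.72 ± 0.27 (adjusted p = 0.000552 and 0.00271). Of 18 monomer-binding, capping and severing genes, Tmsb4x, Tmsb10 and Pfn2, which buffer or deliver actin monomers, rose in KO RA against KO NO and 0 fell. Tmsb4x was at 28.0, 31.7 and 28.5 CPM in KO NO and at 377, 290 and 9730 CPM in KO RA, and its log2 fold change dropped from 6.88 ± 1.29 (adjusted p = 0.0131) to 3.49 ± 0.27 (adjusted p = 8.25e-05) without replicate 3. Cap2 and Capg were called higher in KO NO than in WT NO (adjusted p = 0.0266 and 0.0199, and 0.00495 and 0.00362 without replicate 3); WT NO libraries held at most 0.183 CPM of either. In the list of Arp2/3 subunits, formins and Ena/VASP proteins, which nucleate and extend filaments, 0 of 22 rose and Diaph1 fell in KO RA against KO NO (−1.32 ± 0.28; adjusted p = 0.0217), with −1.08 ± 0.19 (adjusted p = 0.00503) without replicate 3.

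Markers of other cell types were measured in the same libraries, since several of the 49 genes are also markers of muscle and connective tissue. In bulk RNA, fewer cells of a type and less RNA per cell cannot be told apart. The summed level of 16 mesenchymal and fibroblast markers was 713 to 1290 CPM in KO RA, above the 421 to 686 CPM of WT RA, the 308 to 336 CPM of WT NO and the 219 to 278 CPM of KO NO. Its group means ran in the same order as those of Acta2 and Myl9, as did those of the neuron and neural progenitor sums given below. Col3a1, Col1a2 and Prrx1 were each higher in every RA library than in every NO library. Much of this sum was Vim, at 553, 435 and 639 CPM in KO RA, 297, 456 and 240 CPM in WT RA and 178 to 231 CPM in WT NO. For Vim, KO RA and WT RA overlapped. Dcn added 345 CPM in KO RA replicate 3 alone (3.36 to 37.5 CPM elsewhere). Thy1 was lower in KO RA (1.26 to 1.98 CPM) than in KO NO (2.54 to 3.67 CPM). Col3a1 was at 71.7, 35.3 and 15.9 CPM in KO RA and at 20.3, 27.1 and 18.9 CPM in WT RA, so replicate 3 of KO RA was below every WT RA library. In KO RA against KO NO, 7 of the 15 tested were higher and 0 lower (9 and 0 without KO RA replicate 3). Over all genes 3.89% were higher and 1.59% lower (8.48% and 7.54%). In WT RA against WT NO, 3 were higher and 0 lower (5 and 0), against 0.321% and 0.0848% of all genes (5.65% and 5.13%). In KO RA against WT RA, 1 was higher and 0 lower (4 and 0), against 0.885% and 0.358% (4.42% and 5.44%). None of the 16 was at 0 in all KO RA libraries, and 1 was at 0 in all KO NO libraries. The sum of 10 endothelial markers was 15.3 to 26.0 CPM in KO RA and 4.73 to 11.2 CPM elsewhere, with 4 of the 10 at 0 in all WT NO and in all KO NO libraries. The sum of 6 smooth muscle markers outside the 49 genes was 12.2 to 30.6 CPM over all groups, most of it Smtn (8.42 to 28.2 CPM), and the defining Myh11 and Myocd were at or under 0.183 CPM in every library. The sum of 14 striated muscle markers was 56.6 to 97.6 CPM in KO RA and 28.6 to 89.3 CPM elsewhere. Neuron markers (12) summed to 198 to 299 CPM in KO RA against 182 to 214 CPM in WT RA, 102 to 200 CPM in WT NO and 146 to 157 CPM in KO NO. The largest part in KO RA was Stmn2, at 62.3, 70.3 and 165 CPM, the last in replicate 3. Of the 12, 8 had positive fold changes in KO RA against KO NO, but Nefl (8.69 to 16.8 against 31.7 to 48.9 CPM) and Rbfox3 (0.0991 to 0.784 against 1.27 to 2.07 CPM) were lower. Sums of 10 neural progenitor markers were 297 to 464 CPM and of 8 astroglial markers 105 to 280 CPM. Most of the astroglial sum was Gja1 (88 to 265 CPM), while Gfap, Aqp4 and S100b were at or under 0.198 CPM in every library. Pluripotency markers (8) summed to less in KO RA, at 1660 to 2190 CPM, than in KO NO, at 2470 to 2860 CPM. Most of this sum was Pou5f1 (800 to 1170 CPM in KO RA and 1350 to 1610 CPM in KO NO) and Tdgf1 (292 to 1140 and 442 to 622 CPM), and of 7 tested, 1 was called lower (Lin28a) and 3 had positive fold changes. Epithelial markers (10) summed to 150 to 227 CPM in KO NO, above every other library, with the lowest, 74.3 CPM, in KO RA. The part of these cell-type markers in the changes of the contractile genes was not tested.

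**Figure D4:**
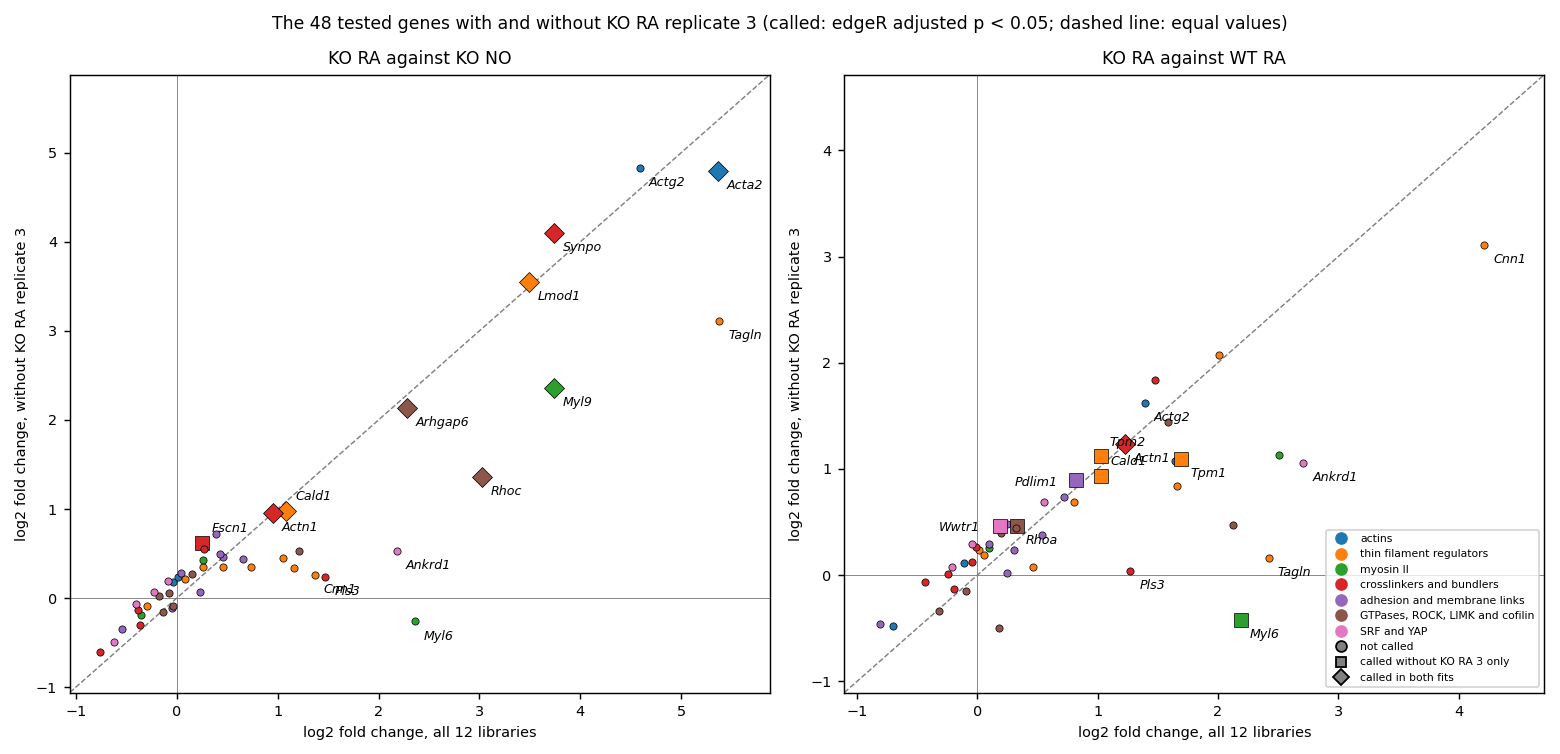
Each point is 1 of the 48 tested genes, with its log2 fold change in all 12 libraries (horizontal axis) and without KO RA replicate 3 (vertical axis), for KO RA against KO NO (left) and KO RA against WT RA (right), coloured by role and shaped by the edgeR call. Genes near the dashed line, such as Lmod1, Cald1 and Actn1, moved little on leaving out that library, while Tagln, Rhoc, Myl9 and Myl6 lie well below it.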

How the data were processed

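Polyadenylated RNA from 12 samples (4 groups of 3) was sequenced. The authors ran the nf-core RNA-seq pipeline (STAR and Salmon, GRCm39) and deposited 1 table of estimated counts per gene and library. The submitters' processing notes also name DESeq2. The deposited estimated counts are scaled: among 3851 genes above 0 in 1 library only, longer genes had lower values (a Spearman correlation with exonic length of −0.685 across genes, which are not independent replicates), so CPM values are per length and can be compared between genes. Counting error cannot be read from them directly.

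Estimated counts were rounded. Genes were filtered with filterByExpr by group (16502 of 57010 kept; 27569 were 0 throughout), scaled by TMM and tested with edgeR 4.0.16 (quasi-likelihood, robust, 1 coefficient per group, all 12 libraries) in R 4.3.3, with Benjamini-Hochberg adjustment over all genes tested and a threshold of 0.05. The self-test on simulated counts ran before the data. Passages were separate, and p-values measure the spread between them. Alternatives were DESeq2 1.42.0, limma-voom (limma 3.58.1), DESeq2 size factors, other count filters, a replicate block, only the groups compared, and leaving out each library. DESeq2 without KO RA replicate 3 was added after seeing the data. Levels are TMM-scaled CPM, and SE is that of the fitted log2 fold change.

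Members and all lists were chosen with earlier results of these data known. Values are given in every library for members called in any comparison with 12 libraries, or in at least 2 comparisons without KO RA replicate 3, and for Actb, Actg1, Acta2, Actg2, Tagln, Myl9, Srf, Yap1, Wwtr1 and Ankrd1. Other members are given by ranges or where called. From each other list, up to 3 called genes per comparison with the smallest p could be named. Promoters are from RefSeq, positions from exact matches to GRCm39. The counts over all 139 neighbouring genes include 1 list that is not reported here on its own.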

Additional observations from a re-analysis of the deposited data

Results flagged for a closer look

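The RA response of Fscn1 differed between genotypes by 0.94 on the log2 scale (0.936) in the fit without KO RA replicate 3, where the interaction term passed the edgeR test (adjusted p = 0.0324). WT RA libraries were below WT NO libraries and KO RA replicates 1 and 2 were above KO NO libraries. With all 12 libraries it did not pass (adjusted p = 0.749).

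Pdlim7 was lower in every WT RA library than in every WT NO library and higher in every KO RA library than in every KO NO library, so that the responses ran in opposite directions. Their difference was 1.06 (1.059) in the edgeR fit of all 12 libraries and did not pass (adjusted p = 0.430). Without KO RA replicate 3 it was 0.83 (adjusted p = 0.118).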

How the results depend on the processing

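With edgeR on all 12 libraries, genes called among the 48 numbered 0 for genotype without RA, 1 for genotype after RA, 0 for RA in WT cells, 8 for RA in KO cells and 0 for the difference in response. In the same order DESeq2 gave 1, 15, 2, 16 and 2, limma-voom 12, 17, 14, 17 and 4, and DESeq2 without KO RA replicate 3 gave 12, 12, 11, 14 and 6. Over all genes DESeq2 called 1015, 1315, 924, 2632 and 309 of 16502, limma-voom 3566, 2987, 3562, 4531 and 985, and DESeq2 without that library 2591, 2769, 2963, 3731 and 1334 of 17327. Fitting only the groups compared gave 2, 0, 0 and 1, and was not run for the difference in response. Leaving out 1 library at a time gave 0 to 4, 0 to 8, 0 to 2, 0 to 11 and 0 to 1. Among these, leaving out KO RA replicate 3 gave 4, 8, 2, 9 and 1, and leaving out any KO NO library gave 0 for RA in KO cells, while leaving out KO RA replicate 2 gave 11. Over all genes, RA in KO cells had 904 calls with all libraries, 194 to 233 without a KO NO library and 1091 without KO RA replicate 2. Leaving out any WT RA library gave 0 for genotype after RA, and leaving out WT NO replicate 1, WT NO replicate 3 or KO RA replicate 2 gave 2. Over all genes, genotype after RA had 205 calls with all libraries, 19 to 30 without a WT RA library, and 142, 425 and 256 in the latter settings. The replicate block gave 0, 1, 0, 6 and 0. Same-numbered samples did not deviate together (correlations of −0.263 to 0.0716), so the numbers were not taken as pairs. DESeq2 size factors and both count filters kept every count within 1.5 times.

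Among the genes followed under every alternative, signs reversed for 6 that passed no test with all libraries. For Myl6 the log2 fold change over WT RA, 2.19, became −0.33 with limma-voom, −0.43 without KO RA replicate 3 and −0.43 with DESeq2 without it (range on leaving out 1 library −0.43 to 2.79), and over KO NO, 2.36, it became −0.18, −0.26 and −0.26 (−0.26 to 2.96). In the same 3 settings KO RA over WT RA became 0.12, 0.12 and 0.11 for Actb (−0.24 to 0.12), 0.070, 0.079 and 0.073 for Srf (−0.41 to 0.08) and 0.27, 0.29 and 0.28 for Yap1 (−0.28 to 0.29). KO RA over KO NO became 0.17, 0.19 and 0.19 for Actb (−0.16 to 0.19), 0.046, 0.067 and 0.071 for Srf (−0.42 to 0.07) and 0.17, 0.19 and 0.19 for Wwtr1 (−0.24 to 0.19). For Actb it was also 0.011 with DESeq2, 0.011 with DESeq2 size factors and 0.015 with at least 10 counts in every library. For Actg1, 0.016 became −0.024 without a filter beyond 1 count and −0.047 with the replicate block (−0.12 to 0.24). The cause was not tested.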
